A study of Mus musculus with 6 samples.

Results

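Macrophage and myeloid genes were followed as a set of 32 genes, out of 19938 genes that the arrays measured with a probe set of a single symbol. The set was drawn up from knowledge of the cell type and with earlier results of these data known, so it was not tested as a set. Each member had 1 probe set. It was split into 7 genes typical of tissue-resident macrophages (Mrc1, Cd163, Pf4, Folr2, F13a1, Cbr2 and Stab1), 3 genes of MHC class II antigen presentation (Cd74, H2-Aa and H2-Ab1) and 22 other myeloid genes.

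The arrays hold RNA of whole corneas from mouse pups at postnatal day 3. There were 3 wild-type (WT) samples and 3 from littermates with the K14-DN-Clim transgene, which puts a dominant-negative CLIM, a cofactor of LIM-domain regulators, under the keratin 14 promoter. The title of the study is about CLIM, Wnt signalling and the upkeep of stem cells in the corneal epithelium. That promoter is active in basal epithelial cells and not in macrophages, so a macrophage gene is read here in cells that are not the ones meant to carry the transgene. The sources used here do not name the mouse strain or the form of CLIM used, nor do they say if each array came from 1 pup or several. The spread behind the p-values is that between arrays, and some of it may be technical.

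Macrophages are phagocytes that take up dying cells and debris and that most tissues hold from before birth. They need the receptor Csf1r to survive, sense antibody through Fc receptors, release the complement component C1q and digest cargo with lysosomal enzymes. In the cornea they lie mainly in the stroma and at the limbus, where some of them carry MHC class II. Resident cells along vessels and in connective tissue are known for the mannose receptor Mrc1, the haemoglobin receptor Cd163 and the folate receptor Folr2.

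All values are log2(intensity + 16), where intensity is the linear probe set value, and differences are DN-Clim minus WT on that scale, which understates the change of dim genes. The DN-Clim arrays did not form a uniform group. Over 19 lens genes the median relative to the WT mean was 4.03, 4.24 and -0.19 on DN-Clim replicates 1, 2 and 3. The summed intensity of these genes ran from 8872 to 14540 in WT and from 7162 to 179490 in DN-Clim. The lowest sum, 7162, was on DN-Clim replicate 3. On it some crystallins lay below all WT arrays, such as Crygd at -2.88, while 3 lens genes were above all WT arrays on every DN-Clim array. Over 20 keratocyte and stromal matrix genes the medians were -1.09, -1.82 and 0.01. Krt12, the keratin of corneal epithelium, read 11.04 to 11.96 and Kera, a proteoglycan of the stroma, 11.96 to 13.09 over the 6 arrays. The medians of all genes were -0.06, -0.17 and 0.08 on DN-Clim replicates 1, 2 and 3, which sets the scale for a small median below.

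As a set, the myeloid genes were lower in the DN-Clim corneas, with 30 of 32 differences below 0 and a median of -0.30, where 56% of all genes lay below 0 with a median of -0.03. With quantile normalization 24 of 32 lay below 0, against 42.7% of all genes, and with median centring 27 of 32, against 41.9%. The signs of C1qa, C1qb and Ly86 turned under both of these, and those of Cd14, Cybb and H2-Aa under quantile normalization. No single member passed the adjusted threshold of 0.05 in limma's fit over all probe sets, which called 3 probe sets lower, or 0.0128% of those tested, and none higher. They stand for 3 genes, or 0.015% of all genes. The smallest adjusted p among the members was 0.172, for Pf4.

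At an unadjusted limma p under 0.05, 10 of the 32 members were lower and 0 higher, against 4.16% and 1.41% of all genes. These were Pf4, Mrc1, Lyz2, Ms4a7, Cd68, Tyrobp, Cbr2, Cd163, Lyz1 and C1qc. In 15 members every DN-Clim array was lower than every WT array, against 6.25% of all genes, and in 0 members every DN-Clim array was higher, against 3.4%. In bulk RNA, fewer macrophages and less of these transcripts in each macrophage cannot be told apart.

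The lower values were on all 3 DN-Clim arrays, in different degrees. DN-Clim arrays 1, 2 and 3 had medians over the 32 members of -0.31, -0.42 and -0.24 relative to the WT mean, and the WT arrays of 0.08, -0.09 and 0.01. On DN-Clim replicate 1, 23 members lay below all 3 WT arrays, against 38.1% of all genes, and on replicate 2, 28 members did, against 50.7%. On replicate 3, where lens genes were not raised as a list, 19 members did, against 25.9%. A WT array could come near this, as WT replicate 2 had 17 members below the other WT arrays, against 23.7% of all genes. That count is against 2 arrays and not 3. The summed intensity of the 32 genes was 9111 to 10372 in WT and 6398 to 7212 in DN-Clim, so the groups did not overlap.

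**Figure D1:**
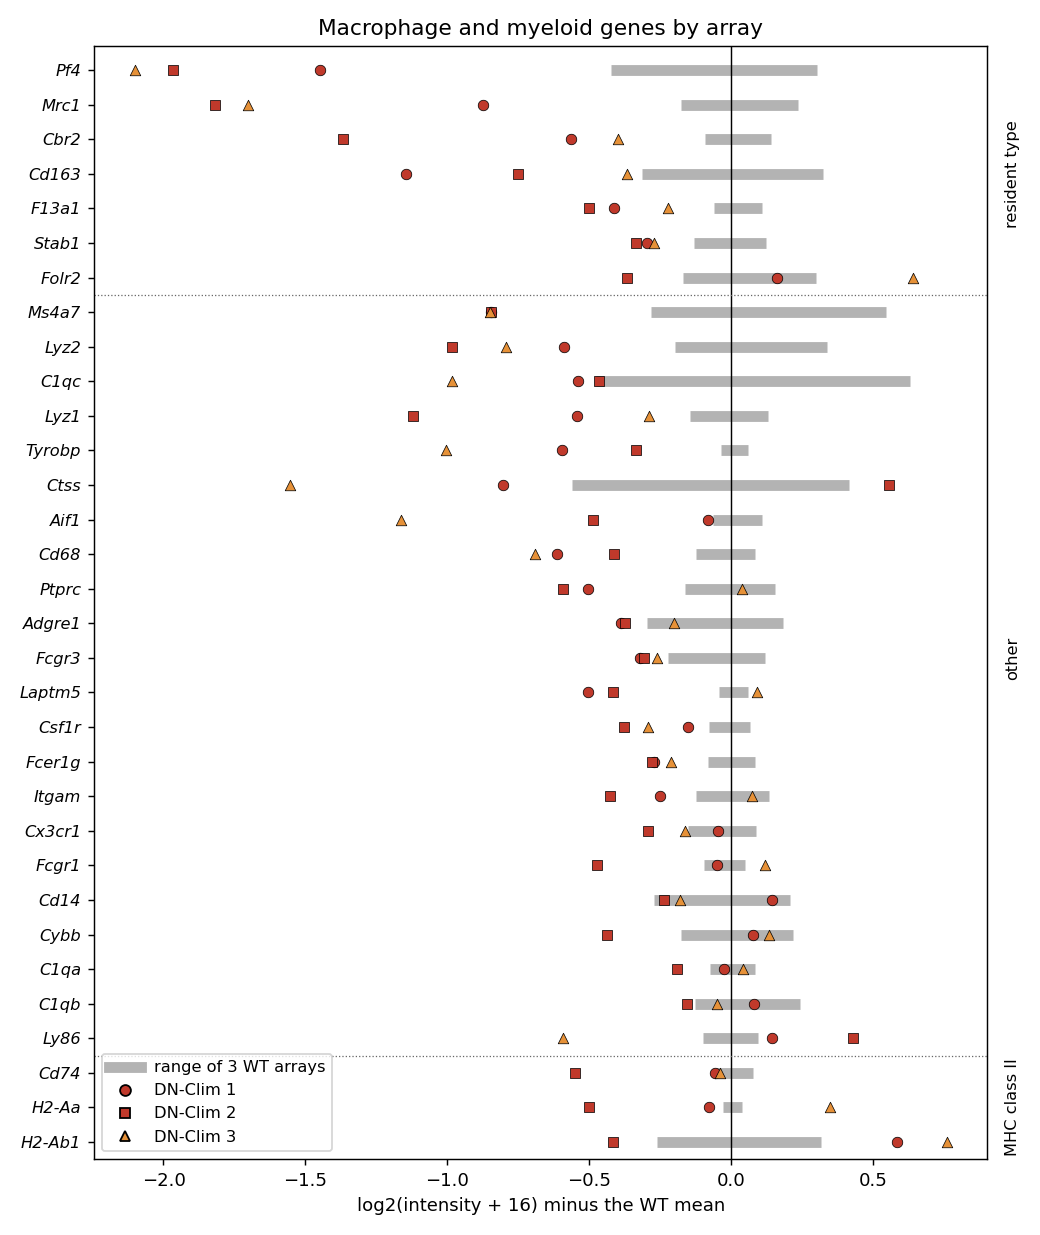
Each row is a member gene, and the x axis gives its log2(intensity + 16) minus the WT mean. Grey bars span the 3 WT arrays and symbols are the DN-Clim arrays. Pf4 and Mrc1 lie farthest to the left on average, with symbols between -2.10 and -0.88. Single symbols of other genes fall in that span, such as Ctss at -1.55 on DN-Clim replicate 3. The MHC class II genes at the bottom lie on both sides of 0.

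The resident-type genes included the members with the largest differences. Their median difference was -0.76, and 6 of the 7 had separate groups with the DN-Clim arrays lower, against 6.25% of all genes, Folr2 being the exception. Their summed intensity was 2910 to 3383 in WT and 1248 to 1928 in DN-Clim. This sum leans on Cbr2, Pf4 and Mrc1, the brightest of the 7 in WT, where Cbr2 alone had intensities of 1200 to 1413. None of the 7 passed the adjusted threshold.

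Pf4, platelet factor 4, is a chemokine stored in platelets that is also made by resident macrophages. It read 9.60, 8.88 and 9.43 in WT replicates 1, 2 and 3 and 7.85, 7.34 and 7.20 in DN-Clim replicates 1, 2 and 3. The lowest WT array stood well above the highest DN-Clim array, and the lowest value of all was on the DN-Clim array without the raised lens signal. The means were 9.30 ± 0.38 (SD, n = 3) and 7.46 ± 0.345 (SD, n = 3). They differed by -1.84 (SE 0.255, limma adjusted p = 0.172), with a 95% interval from -2.41 to -1.26. On the offset scale this was 3.58-fold higher in WT. Without DN-Clim replicate 3 Pf4 fell by 1.71 (adjusted p = 0.019), and in DN-Clim replicate 3 alone against WT it fell by 2.10 (adjusted p = 0.0442), a fit that assumes this sample varies like WT. These p-values do not account for the choice of arrays. The fits that each leave out 1 of the 6 arrays gave adjusted p-values up to 0.942, the last without WT replicate 1.

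Mrc1 encodes a C-type lectin that clears glycoproteins and collagen fragments and that is also found on some endothelial cells. It read 9.09, 8.68 and 8.80 on the WT arrays and 7.98, 7.04 and 7.16 on DN-Clim arrays 1, 2 and 3. Replicates 2 and 3 were alike and replicate 1 lay between them and the WT arrays. The difference was -1.46 (SE 0.268, limma adjusted p = 0.341), with a 95% interval from -2.07 to -0.86. In DN-Clim replicate 3 alone against WT it fell by 1.70 (adjusted p = 0.0442), but it did not pass without that array, at -1.35 (adjusted p = 0.0548). Over the fits that each leave out 1 array the differences were -1.76 to -1.29 and the adjusted p-values went up to 0.9999, the last without WT replicate 1.

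The stretches before the starts of Mrc1, Pf4 and H2-Aa are printed to show what lies upstream, the first 2 for the genes with the largest differences and the third for an MHC class II gene. Many myeloid promoters lack a TATA box and are bound by PU.1, an ETS factor that recognises a GGAA core. Each line holds the 250 bases before the annotated start in RefSeq on GRCm38.p6, 5′ to 3′ on the gene's strand, with matches to GAGGAA or its reverse complement TTCCTC, and to CCAAT or its reverse complement ATTGG, in capitals.
Mrc1 (chr2:14229164-14229413, plus strand): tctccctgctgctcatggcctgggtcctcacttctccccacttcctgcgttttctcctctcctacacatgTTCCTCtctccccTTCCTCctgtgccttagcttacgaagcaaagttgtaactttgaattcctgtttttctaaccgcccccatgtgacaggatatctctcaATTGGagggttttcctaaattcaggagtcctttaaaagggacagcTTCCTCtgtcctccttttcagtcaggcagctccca
Pf4 (chr5:90772185-90772434, plus strand): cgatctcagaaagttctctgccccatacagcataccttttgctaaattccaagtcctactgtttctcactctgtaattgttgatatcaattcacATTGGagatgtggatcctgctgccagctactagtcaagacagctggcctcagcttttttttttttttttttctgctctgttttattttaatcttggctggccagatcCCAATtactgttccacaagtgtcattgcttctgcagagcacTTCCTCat
H2-Aa (chr17:34287824-34288073, minus strand): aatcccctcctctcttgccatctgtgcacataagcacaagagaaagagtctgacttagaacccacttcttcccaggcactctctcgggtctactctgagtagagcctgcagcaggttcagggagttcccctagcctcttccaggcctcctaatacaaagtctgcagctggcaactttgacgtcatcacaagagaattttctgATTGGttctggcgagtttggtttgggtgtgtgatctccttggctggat
The Mrc1 stretch holds 3 matches to GAGGAA, all in the reverse complement, at -180, -167 and -35 from the start. Pf4 holds 1, at -8. H2-Aa holds none and has 1 match to CCAAT at -48, the letters of the Y box that MHC class II promoters are known to share.

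A promoter of this length was matched for 25 of the 32 members, and 15 of the 25 hold GAGGAA on either strand, against 23.1% of 27025 promoters. CCAAT is in 11 of the 25, against 34.5%. In the 3 printed stretches no match to one motif overlaps a match to the other, and a match describes the sequence and does not show binding. Among the resident-type members GAGGAA is in 5 of 7, all but Cd163 and Folr2.

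Cd163, the scavenger receptor for haemoglobin bound to haptoglobin, read 8.07, 7.43 and 7.74 on the WT arrays and 6.60, 6.99 and 7.38 on DN-Clim arrays 1, 2 and 3. The groups did not overlap, but DN-Clim replicate 3 lay just under WT replicate 2. The difference was -0.76 (SE 0.252, adjusted p = 0.738).

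Cbr2, a carbonyl reductase that marks resident dermal and other connective tissue macrophages, read 10.29, 10.48 and 10.25 on the WT arrays and 9.78, 8.97 and 9.94 on the DN-Clim arrays. DN-Clim replicate 2 was far below the rest. The difference was -0.78 (SE 0.261, adjusted p = 0.74), and it was -0.48 without DN-Clim replicate 2 and -0.40 in DN-Clim replicate 3 alone against WT.

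F13a1, the A subunit of coagulation factor XIII, read 7.82, 7.67 and 7.66 on the WT arrays and 7.30, 7.22 and 7.50 on the DN-Clim arrays. Stab1, a scavenger receptor of macrophages and sinusoidal endothelium, read 7.81, 7.56 and 7.70 on the WT arrays and 7.40, 7.36 and 7.42 on the DN-Clim arrays. Both genes had narrow, separate groups, with differences of -0.38 (SE 0.177) and -0.30 (SE 0.172), and neither passed (adjusted p = 0.864 and 0.942).

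Folr2, the folate receptor of resident macrophages, did not follow the other 6. It read 7.63, 7.20 and 7.16 on the WT arrays and 7.49, 6.96 and 7.97 on DN-Clim arrays 1, 2 and 3, so that the highest and the lowest of its values were both on DN-Clim arrays. The difference was 0.14 (SE 0.271), with a 95% interval from -0.47 to 0.76, and its sign turned without DN-Clim replicate 3.

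**Figure D2:**
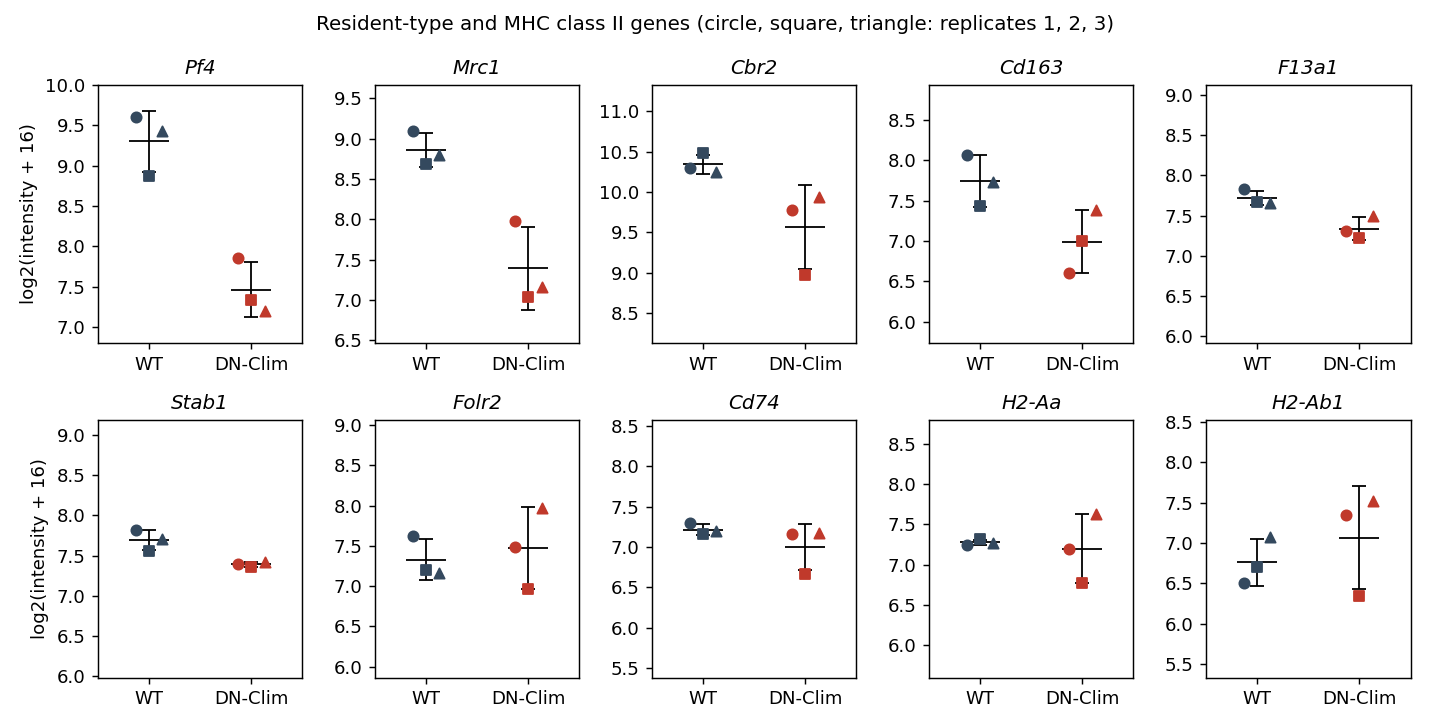
Each panel gives log2(intensity + 16) of 1 gene on the y axis for the 3 WT and 3 DN-Clim arrays, with bars for the mean and SD and the same span of the axis in every panel. The groups are separate for Pf4, Mrc1, Cbr2, Cd163, F13a1 and Stab1 and overlap for Folr2 and for the 3 MHC class II genes.

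The MHC class II members showed no common direction. All 3 were dim, with intensities of 65.1 to 181 where array medians were 230.8 to 280.9, so a shared change could be missed. Their median differences from the WT mean were -0.06, -0.50 and 0.35 on DN-Clim replicates 1, 2 and 3, which follows the order of the medians of all genes. The list median of -0.08 turned to 0.025 with quantile normalization and to 0.13 without DN-Clim replicate 2. None of the 3 passed.

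Cd74, the invariant chain that guides class II molecules to the lysosome, read 7.29, 7.16 and 7.19 on the WT arrays and 7.16, 6.67 and 7.18 on the DN-Clim arrays. Only DN-Clim replicate 2 stood apart. The difference was -0.22, with a 95% interval from -0.67 to 0.23.

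H2-Aa, a class II alpha chain, read 7.25, 7.31 and 7.27 on the WT arrays and 7.20, 6.77 and 7.62 on the DN-Clim arrays. The WT arrays were nearly equal and the DN-Clim arrays lay on both sides of them. Its difference was -0.08, with a 95% interval from -0.60 to 0.44.

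H2-Ab1, the matching beta chain, read 6.50, 6.70 and 7.07 on the WT arrays and 7.34, 6.34 and 7.52 on the DN-Clim arrays. It had the largest positive difference of the 32 members, 0.31 (SE 0.312, adjusted p = 0.999), and again DN-Clim replicate 2 was the lowest array. These intervals leave room for changes in either direction, so the values do not show that class II genes were alike in the groups.

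The 22 other members had a median difference of -0.29, and all 22 differences were below 0 without added normalization. Of them 6 were lower at an unadjusted p under 0.05, against 4.16% of all genes, and 9 were lower with no overlap between the groups, against 6.25%. They are given by what the proteins do.

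Ptprc and Laptm5 are found across white blood cells. Ptprc, the CD45 phosphatase, read 8.21, 7.90 and 8.07 on the WT arrays and 7.55, 7.47 and 8.10 on DN-Clim arrays 1, 2 and 3. Replicates 1 and 2 were below the WT arrays and replicate 3 was within them, and the difference was -0.35 (SE 0.218). Laptm5, a lysosomal membrane protein, was likewise low on replicates 1 and 2, at -0.50, -0.42 and 0.09 relative to the WT mean.

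Csf1r, the receptor for the growth factors Csf1 and Il34, read 8.03, 7.89 and 7.98 on the WT arrays and 7.82, 7.59 and 7.68 on the DN-Clim arrays. The groups were narrow and did not overlap. The difference was -0.27 (SE 0.173, adjusted p = 0.971).

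Among the surface proteins Cd68, a lysosomal scavenger receptor used as a macrophage marker, read 8.89, 8.94 and 8.73 on the WT arrays and 8.24, 8.44 and 8.16 on the DN-Clim arrays. The groups were separate and DN-Clim replicate 3 was the lowest array. The difference was -0.57 (SE 0.178, adjusted p = 0.693).

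Ms4a7, a membrane protein of tissue macrophages, read 6.90, 6.88 and 7.70 on the WT arrays and 6.31, 6.31 and 6.31 on the DN-Clim arrays. The DN-Clim arrays were almost equal, with intensities of 63.5, 63.5 and 63.3, while WT replicate 3 stood above the other WT arrays. The gene was dim on every array, where array medians were 230.8 to 280.9. Whether the DN-Clim values lie at the floor of the measurement was not tested. The difference was -0.85 (SE 0.243, adjusted p = 0.642).

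Adgre1, an antigen long used to stain mouse macrophages, read 7.82, 7.34 and 7.75 on the WT arrays and 7.25, 7.26 and 7.43 on the DN-Clim arrays. Cx3cr1, the fractalkine receptor, read 9.84, 9.82 and 9.60 on the WT arrays and 9.70, 9.46 and 9.59 on the DN-Clim arrays. In both the groups overlapped, and the differences were -0.32 (SE 0.196) and -0.17 (SE 0.179). Itgam, the integrin CD11b, and Cd14, a coreceptor for bacterial lipopolysaccharide, differed by -0.20 and -0.09, and their 95% intervals include 0.

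The 4 genes of Fc receptors and their signalling chains had differences from -0.65 to -0.13, and none passed, the smallest adjusted p being 0.718. Fcgr3, a low-affinity receptor for IgG, read 7.65, 7.99 and 7.98 on the WT arrays and 7.55, 7.57 and 7.61 on the DN-Clim arrays. Fcer1g, the signalling chain shared by several Fc receptors, read 8.38, 8.46 and 8.54 on the WT arrays and 8.19, 8.18 and 8.25 on the DN-Clim arrays. For both genes the 3 DN-Clim arrays were nearly equal and below the WT arrays, with differences of -0.30 (SE 0.181) and -0.26 (SE 0.168).

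Tyrobp, the adaptor DAP12 that signals for Trem2 and related receptors, read 9.46, 9.38 and 9.36 on the WT arrays and 8.80, 9.06 and 8.40 on DN-Clim arrays 1, 2 and 3. The WT arrays were nearly equal and the lowest DN-Clim array was replicate 3. The difference was -0.65 (SE 0.209, adjusted p = 0.718). Fcgr1, the high-affinity IgG receptor, differed by -0.13, with DN-Clim replicate 3 above the WT arrays.

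The 3 chains of C1q, which bind antibody and dying cells, did not read alike although they form 1 protein. C1qc read 8.74, 7.63 and 7.96 on the WT arrays and 7.57, 7.65 and 7.13 on the DN-Clim arrays, a difference of -0.66 (SE 0.292, adjusted p = 0.836). WT replicate 1 was high, and without it the difference was -0.35. C1qa and C1qb differed by -0.06 (SE 0.174) and -0.04 (SE 0.189).

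Lyz2 is the lysozyme of macrophages and granulocytes, and Lyz1 is a near-identical copy known from Paneth cells of the gut. Lyz2 read 8.64, 8.17 and 8.10 on the WT arrays and 7.71, 7.32 and 7.51 on the DN-Clim arrays. Lyz1 read 7.79, 7.63 and 7.90 on the WT arrays and 7.23, 6.65 and 7.48 on the DN-Clim arrays. Both had separate groups, with differences of -0.79 (SE 0.213, adjusted p = 0.622) and -0.65 (SE 0.237, adjusted p = 0.788), but RNA of either gene could bind probes for the other, so they do not count as separate evidence. Without DN-Clim replicate 2 the difference of Lyz1 was -0.42.

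Aif1, the calcium-binding protein Iba1 of macrophages and microglia, read 8.27, 8.12 and 8.10 on the WT arrays and 8.08, 7.67 and 6.99 on DN-Clim arrays 1, 2 and 3. Replicate 1 lay just under the WT arrays and replicate 3 far below them. The difference was -0.58 (SE 0.268, adjusted p = 0.862), and it was -0.28 without replicate 3.

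Ctss, cathepsin S, trims the invariant chain Cd74 and was the member with the widest spread. Its DN-Clim values relative to the WT mean were -0.81, 0.56 and -1.55, so that replicate 2 was above all WT arrays and replicate 3 below them. The difference was -0.60 (SE 0.478), and it was -1.18 without replicate 2 and -0.12 without replicate 3. Cybb, the membrane subunit of the phagocyte oxidase, and Ly86, a partner of a Toll-like receptor relative, differed by -0.08 and -0.01.

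**Figure D3:**
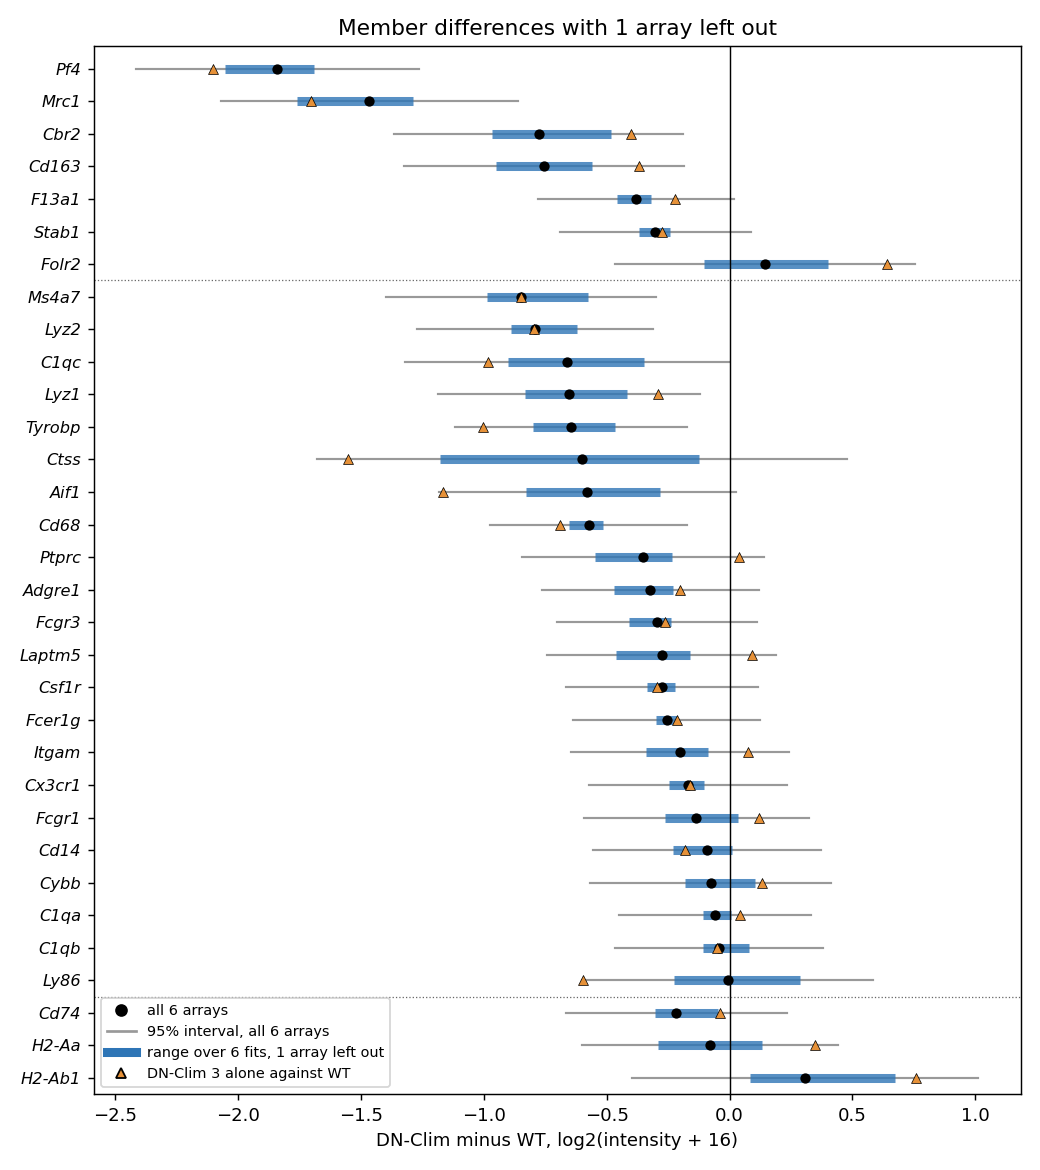
Each row is a member gene, and the x axis gives DN-Clim minus WT in log2(intensity + 16). Dots are the differences with all 6 arrays, thin lines their 95% intervals, thick bars the range of 6 fits that each leave out 1 array, and triangles DN-Clim replicate 3 alone against WT. Pf4 and Mrc1 stay below -1 in every fit drawn. The bars of Fcgr1, C1qa, C1qb, Cd14, Cybb, Ly86, Folr2 and H2-Aa cross 0.

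DN-Clim replicate 3 alone, the DN-Clim array without the raised lens signal, gave a mixed picture of the set. With it, 23 of 32 differences were below 0, against 41.3% of all genes. At an unadjusted p under 0.05, 10 members were lower, against 7.4% of all genes, and 2 were higher, against 11.9%. The 2 higher ones were Folr2 and H2-Ab1, at 0.64 and 0.76 (adjusted p = 0.206 and 0.18). Mrc1 and Pf4 fell in that fit. Ptprc, Itgam, Fcgr1, C1qa, Laptm5, Cybb, Folr2, H2-Aa and H2-Ab1 lay above 0. The resident-type median was -0.37 there, against -0.95 without replicate 3, where 12 members were lower at an unadjusted p under 0.05, against 13% of all genes, and Pf4 was the 1 member that fell past the adjusted threshold, as did 1.41% of all genes.

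Other genes of the same cells were read from lists of related function. Of 21 phagocytic, complement and pattern receptors, 19 were below 0 with a median of -0.19, against 56% of all genes. In this list 8 had no overlap and were lower, against 6.25%. On DN-Clim arrays 1, 2 and 3 the list medians were -0.36, -0.46 and 0.06, in the order of the medians of all genes. The list as a whole was thus not lower on replicate 3. C5ar1 and C3ar1, the receptors for the complement fragments C5a and C3a, differed by -0.96 (SE 0.221) and -0.68 (SE 0.184), and the scavenger receptor Cd36 by -0.82 (SE 0.22). C3ar1 read 9.83, 9.57 and 9.69 on the WT arrays and 9.01, 9.19 and 8.85 on the DN-Clim arrays, so its groups were separate. No gene of this list passed the adjusted threshold, the smallest adjusted p being 0.562.

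Of 15 chemokines and receptors, 13 were below 0, with a median of -0.12. The list medians on DN-Clim arrays 1, 2 and 3 were -0.19, -0.45 and 0.28, so replicate 3 was not lower. Cxcl12, a stromal chemokine that draws Cxcr4-bearing leukocytes, read 8.79, 8.82 and 8.79 on the WT arrays and 8.15, 8.09 and 8.07 on the DN-Clim arrays. Its groups were tight and far apart, at -0.70 (SE 0.166, adjusted p = 0.612). Ccl12, a ligand of Ccr2, differed by -0.44 with no overlap. Cxcr4, the receptor for Cxcl12, is named for its size after its values were seen, and read 9.07, 10.55 and 11.06 on the WT arrays and 11.19, 12.34 and 9.75 on the DN-Clim arrays. Its groups overlapped widely, with a difference of 0.87 (SE 0.652, adjusted p = 0.999). The summed intensity of the 15 genes was 3989 to 5226 in WT and 4628 to 7470 in DN-Clim.

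Of 15 growth factors and transcription factors of the lineage, 11 were below 0, with a median of -0.13. Their medians on DN-Clim arrays 1, 2 and 3 were -0.14, -0.60 and 0.15. There were 0 genes without overlap, against 6.25% of all genes lower and 3.4% higher. Runx1, needed for the origin of blood cells, had the smallest p of this list and differed by -0.77 (SE 0.322, adjusted p = 0.824), or by -0.41 without DN-Clim replicate 2. Of 33 other macrophage genes, 27 were below 0 with a median of -0.17. For these 33 the medians on DN-Clim arrays 1, 2 and 3 were -0.14, -0.34 and 0.07. Of these Lcp1, the actin-bundling protein of leukocytes, had the smallest p, at -0.89 (SE 0.264). It was the 1 gene of the 33 that was lower without overlap, against 6.25% of all genes, and 1 was higher, against 3.4%.

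Of 14 antigen presentation genes, 12 were below 0 with a median of -0.17, against 56% of all genes. In this list 5 had no overlap and were lower, against 6.25%. The list medians on DN-Clim arrays 1, 2 and 3 were -0.32, -0.48 and 0.03. H2-DMa, which loads peptide onto class II molecules, read 7.84, 8.15 and 7.95 on the WT arrays and 7.08, 7.52 and 7.15 on the DN-Clim arrays, a difference of -0.73 (SE 0.196, adjusted p = 0.622). The others with the smallest p belong to class I presentation, Psmb8 of the immunoproteasome at -0.89 and B2m, the class I light chain, at -0.61. Psmb8 read 9.61, 8.49 and 8.09 on the WT arrays and 7.72, 7.89 and 7.90 on the DN-Clim arrays, and its difference was -0.45 without the high WT replicate 1. These genes are made by many cell types.

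Markers of other blood cells did not all follow the myeloid set. The medians were -0.22 over 8 mast cell genes, -0.04 over 11 neutrophil genes, -0.05 over 10 dendritic and Langerhans cell genes and 0.03 over 12 lymphocyte genes. Of the 8 mast cell genes, 5 were below 0 and 3 above, or 62.5% below, against 56% of all genes. The mast cell carboxypeptidase Cpa3 differed by -0.99 (SE 0.218, limma adjusted p = 0.512). It was the 1 gene of the 8 that was lower without overlap, against 6.25% of all genes. Cpa3 was among the brightest of the 8, so it weighs heavily in the summed intensity of mast cell genes. Summed intensities were 2156 to 2795 in WT and 1888 to 2113 in DN-Clim for mast cells, 1692 to 1953 and 1372 to 2594 for neutrophils, and 1753 to 1850 and 1448 to 2544 for lymphocytes. No marker in these lists was listed at 0 on any array. The neutrophil and lymphocyte genes were dim, with means of 6.95 to 7.78 and 6.91 to 7.62, where array medians were 7.95 to 8.21. On DN-Clim arrays 1, 2 and 3 their medians were -0.10, -0.38 and 0.35 for neutrophils and -0.05, -0.33 and 0.47 for lymphocytes. Both follow the order of the medians of all genes, so the values do not show whether these cells were present or unchanged.

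Because Pf4 is also a platelet product, 6 genes of red cells and platelets were read beside it. Their median difference was 0.03 and their summed intensity was 1880 to 2316 in WT and 1769 to 2801 in DN-Clim. On DN-Clim arrays 1, 2 and 3 their medians were -0.11, -0.28 and 0.49, which follows the order of the medians of all genes. Ppbp, the neighbouring platelet chemokine, differed by -0.30 (SE 0.344), at -0.45, -0.98 and 0.52 relative to the WT mean on these arrays. The platelet glycoprotein Gp9 differed by 0.17 (SE 0.214). Both had overlapping groups. The values do not show whether platelets were unchanged, and the part of platelet RNA in the Pf4 difference was not tested.

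Vascular endothelial genes were lower on the same arrays as the resident-type members. Of 18 endothelial genes 15 were below 0 with a median of -0.43, against 56% of all genes, and 9 were lower without overlap, against 6.25%. Their summed intensity was 7307 to 7840 in WT and 4331 to 5720 in DN-Clim. Emcn fell by 2.44 (SE 0.198, adjusted p = 0.0113), and Clec14a and Cdh5 differed by -1.93 and -1.48. The Emcn call was lost when any array other than DN-Clim replicate 3 was left out, with adjusted p-values from 0.0539 to 0.195. The 5 lymphatic endothelial genes had a median of -0.04. Mrc1 and Stab1 can come from endothelium as well, and the part of endothelial or stromal RNA in the myeloid differences was not tested.

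**Figure D4:**
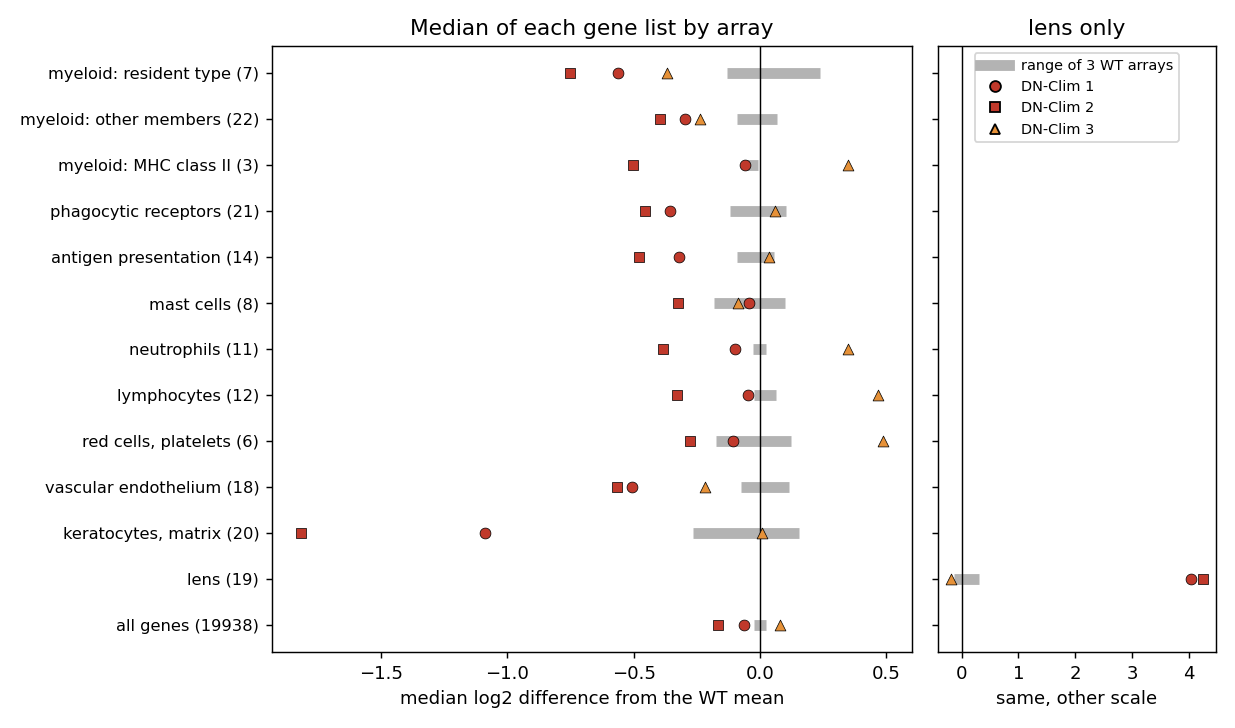
Rows are gene lists with the number of genes, and the x axis gives the median log2 difference from the WT mean on each DN-Clim array, with grey bars for the range of the 3 WT arrays. The resident-type and other myeloid lists and vascular endothelium lie left of the WT range on all 3 DN-Clim arrays, while the keratocyte list does so on replicates 1 and 2 and the lens list, drawn on its own scale, is high on the same 2 arrays.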

How the data were processed

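The deposited values are probe set intensities on a linear scale from Affymetrix Mouse Gene arrays, for which the submitters' processing notes name PLIER and Affymetrix Expression Console 1.1. Per the labels' protocols cDNA was amplified and labelled with NuGEN kits. How background was corrected and arrays were normalized is not given in the sources used here. Array medians were 230.8 to 280.9, or 0.267 apart on the log2 scale, and no normalization was added. No arrays held identical values. The number of arrays limits the precision.

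A platform table gave 23410 of 35557 probe sets a gene, of which 21789 had 1 symbol. On these 23410, log2(intensity + 16) was fitted with lmFit and eBayes of limma 3.58.1 (R 4.3.3), p-values were adjusted by Benjamini-Hochberg over all of them, and 0.05 was the threshold. A gene was read from its single-symbol probe set with the highest mean. The fit was tested on simulated data. Of 233 related genes in 15 lists, 213 were matched.

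Members and lists were chosen with earlier results of these data known, so no list was tested. All 32 members could be named. Values on all 6 arrays were set for resident-type and MHC class II members, members with an unadjusted p under 0.05 or separate groups, and Ptprc, Csf1r, Cx3cr1, Adgre1 and Lyz1. From a related list up to 3 genes with the smallest p were named. Mrc1 and H2-Ab1 promoters were to be printed. H2-Ab1 was not used here, and Pf4 and H2-Aa were chosen after their values were seen. Where a gene had several listed starts, the first was used.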

Additional observations from a re-analysis of the deposited data

How the results depend on the processing

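Besides the reported setting there were 15 refits, plus the mean over all probe sets of a gene, which changes nothing because each member has 1. The 3 probe sets called became 1 with quantile normalization, 0 with all probe sets tested, 5 with a trended robust prior, 9 with the replicate number as a block and 79 with DN-Clim replicate 3 alone, and 0 to 483 when 1 array was left out. The 483 came without DN-Clim replicate 3 and the 0 without each of the other 5. The members called went from 0 to 1 (Pf4, adjusted p = 0.0369) with the block, to 2 with DN-Clim replicate 3 alone and 0 to 1 with 1 array left out. Equal replicate numbers did not deviate together (correlations 0.02, -0.21 and -0.44 for numbers 1, 2 and 3). With so few arrays and an uneven DN-Clim group, these correlations cannot show whether equal numbers share a litter or a batch. The labels do not say it either.

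The resident-type median of -0.76 became -0.37 with DN-Clim replicate 3 alone and -0.95 to -0.48 with 1 array left out. The MHC class II median became 0.025 with quantile normalization, 0.35 with DN-Clim replicate 3 alone and -0.29 to 0.13 with 1 array left out. With dim probe sets left out, 27 of the 32 members were fitted. Cd14, Ms4a7, Cybb, Cd74 and H2-Ab1 were not, so the MHC class II median there was that of H2-Aa alone. The medians of all 32 and of the 22 others kept their sign throughout, at -0.34 to -0.26 and -0.31 to -0.24 with 1 array left out. The cause of these changes was not tested.

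For single members, 443 alternative values kept the sign and the call of the reported fit, 4 gained a call, 0 lost one and 28 had the other sign, all with adjusted p above the threshold. Turned values were 0.0062 for Ly86 with an offset of 64. With quantile normalization they were 0.012 for C1qa, 0.025 for C1qb, 0.025 for Cd14, 0.037 for Cybb, 0.11 for Ly86 and 0.025 for H2-Aa, and with median centring 0.011 for C1qa, 0.028 for C1qb and 0.063 for Ly86. With DN-Clim replicate 3 alone they were 0.038 for Ptprc, 0.074 for Itgam, 0.12 for Fcgr1, 0.042 for C1qa, 0.091 for Laptm5, 0.13 for Cybb, 0.35 for H2-Aa and 0.52 for Ppbp. With 1 array left out the ranges were -0.26 to 0.034 for Fcgr1, -0.11 to 0.0080 for C1qa, -0.11 to 0.078 for C1qb, -0.23 to 0.012 for Cd14, -0.18 to 0.10 for Cybb, -0.23 to 0.29 for Ly86, -0.10 to 0.40 for Folr2, -0.29 to 0.13 for H2-Aa, -0.71 to 0.036 for Ppbp and -0.0066 to 0.34 for Gp9.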

Other observations

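The spread within a group differed between members. Ctss spanned 2.11 log2 units over the 3 DN-Clim arrays and 0.97 over the WT arrays, while Ms4a7 spanned 0.0033 in DN-Clim and 0.82 in WT. C1qc spanned 1.11 in WT, on arrays where C1qa spanned 0.16. DN-Clim replicate 2 was the lowest of the 6 arrays for 19 of the 32 members, replicate 3 for 8, and replicate 1 for 4, and WT replicate 1 was the highest for 16.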
